A study of Arabidopsis thaliana with 8 samples.

Results

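Whole Arabidopsis seedlings of the gbf1 hyh double mutant were compared with wild-type seedlings on 4 of the 8 Affymetrix expression arrays of the series, chosen by the genotype in their labels. The gbf1 hyh seedlings carry mutations in GBF1 and HYH, and wild type is labelled ecotype Col-0. The arrays of gbf1 hy5 and gbf1, which share the gbf1 mutation, added to the estimate of spread and are described only beside the genes of the comparison. Each genotype had 2 biological replicates of 4-day-old seedlings kept at 22 °C under constant white light (20 µmol per square metre and second). The plates held 1% sucrose and had first been chilled at 4 °C for 4 days. Neither alleles nor outcrossing nor an ecotype is stated for the mutants, so genetic background cannot be told apart from loss of GBF1 and HYH in any result below. This holds above all for near-total losses of signal. Gene signals were read on 22746 probe sets. Values are log2 signals with each probe set's median over the 8 arrays set to 0, so a value shows how genotypes differ within a gene and holds no expression level. A difference is the gbf1 hyh mean minus the wild-type mean on that log2 scale, tested with limma. Its standard error (SE) rests on 2 arrays per genotype and a spread estimated over all 8 arrays. A probe set was called at a Benjamini-Hochberg adjusted p under 0.05.

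GBF1, HYH and HY5 are bZIP transcription factors, proteins that bind DNA as dimers at G-box and related ACGT elements. HY5 promotes light-dependent development of seedlings, and HYH, its closest relative, overlaps with it in function. GBF1 acts in blue-light signalling, with both negative and positive roles in seedling growth. Genes under such factors include those of photosynthesis, pigments, hormone response and root growth.

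HYH (AT3G17609) had the lowest signal in the double mutant that is named for it. Its signal was -2.03 and -1.78 in gbf1 hyh, -1.01 and -0.85 in gbf1 hy5, 1.69 and 1.94 in gbf1, and 1.07 and 0.85 in wild type. The gbf1 hyh arrays lay below all others, and HYH fell by 2.87 (SE 0.166, adjusted p = 5.1e-05). The stretch of HYH read by the probe set is not stated. The probe table used here ties no probe set to GBF1 alone, so its loss was not checked.

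More transcripts were lower than higher in gbf1 hyh. Of the 22746 probe sets 292 were called (1.28%), 83 higher (0.365%) and 209 lower (0.919%). The median difference was -1.28 over the lower calls and 1.12 over the higher calls, against 0.0298 over all probe sets. At 2-fold or more there were 221 calls (0.972%), 56 higher (0.246%) and 165 lower (0.725%). At 8-fold or more there were 23 (0.101%), 4 higher (0.0176%) and 19 lower (0.0835%). All 292 called probe sets had both gbf1 hyh arrays on one side of both wild-type arrays, as did 40.4% of all probe sets tested. Counted as genes with a probe set of their own, 158 of 13355 were called (1.18%), 49 higher (0.367%) and 109 lower (0.816%). Of these 158 genes 133 carry only a locus name in the gene table used here. The counts depended on single arrays. Without wild type replicate 1 there were 68 calls, without wild type replicate 2 there were 69, without gbf1 hyh replicate 2 there were 123, and without either gbf1 hy5 array 158.

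**Figure D1:**
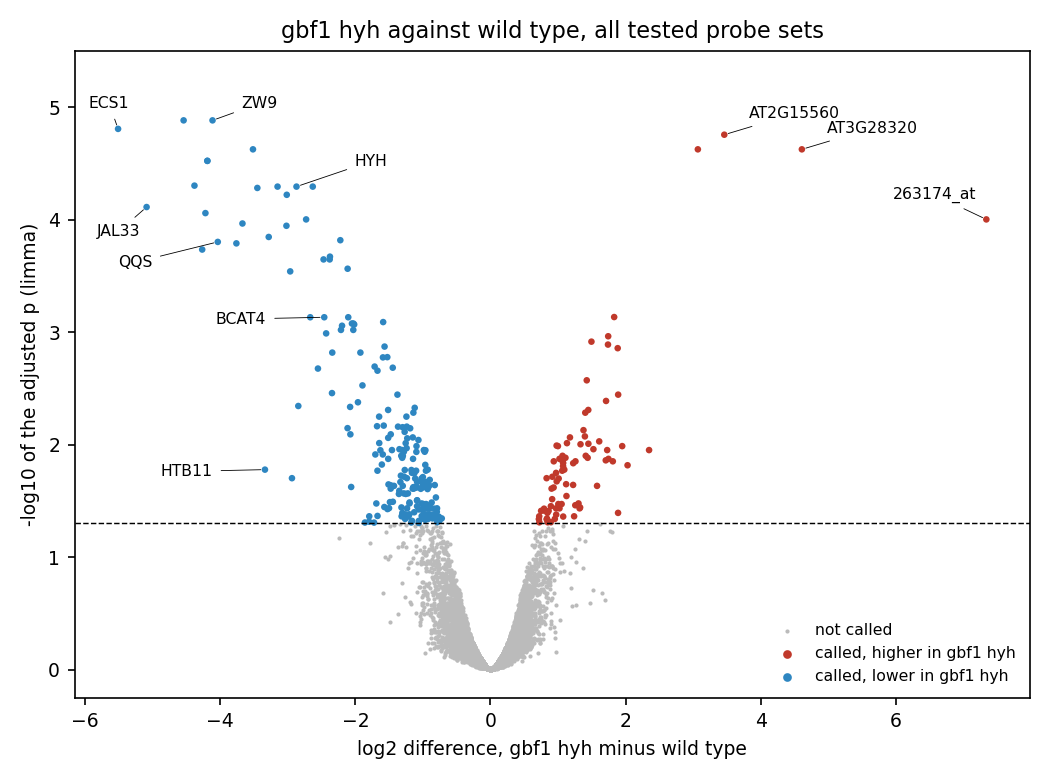
Each point is 1 of 22746 probe sets, with the log2 difference of gbf1 hyh minus wild type across and the negative log10 of the limma adjusted p upwards; the dashed line marks an adjusted p of 0.05. The 209 lower calls (blue) outnumber the 83 higher calls (red), and ECS1 and 263174_at lie at the ends of the range.

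The arrays differed in quality measures, and gbf1 hyh and gbf1 each held 1 array of high control signal and the wider spread between replicates. The mean of the hybridisation control probe sets, which read RNA added in the laboratory, was -0.522 and 1.4994 on the gbf1 hyh arrays, -0.145 and 0.114 on the gbf1 hy5 arrays, -0.334 and 1.79 on the gbf1 arrays, and -0.186 and 0.268 on the wild-type arrays. The replicate arrays differed from each other with an SD of 0.350 in gbf1 hyh, 0.239 in gbf1 hy5, 0.366 in gbf1 and 0.236 in wild type. Without gbf1 hyh replicate 2 and gbf1 replicate 2, the arrays of high control signal, limma called 337 probe sets, of which 208 were among the 292. Root hair and green tissue markers are given below with their lists. A lower signal in whole seedlings can come from fewer cells of a type or from less RNA per cell, which cannot be told apart here.

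The largest fall among genes with a probe set of their own was in ECS1 (AT1G31580), which encodes a cell wall protein. Its signal was -6.00 and -5.69 on the gbf1 hyh arrays, 1.58 and 1.25 on the gbf1 hy5 arrays, 1.05 and 0.32 on the gbf1 arrays, and -0.35 and -0.32 on the wild-type arrays. Both gbf1 hyh arrays were far below the other 6, and ECS1 fell by 5.51 (SE 0.238, adjusted p = 1.56e-05), or 45.6-fold. In gbf1 hy5 the gene was 1.75 above wild type (adjusted p = 0.00655). ZW9 (AT1G58270), a TRAF-like family gene, stood at -4.53 and -4.23 in gbf1 hyh, 0.29 and 0.15 in gbf1 hy5, 0.79 and 0.99 in gbf1, and -0.39 and -0.15 in wild type. It fell by 4.11 (SE 0.167, adjusted p = 1.31e-05), with the gbf1 hyh arrays again apart from the other 6.

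The locus AT1G23960 showed the same order, at -4.26 and -4.12 in gbf1 hyh, 0.37 and 0.24 in gbf1 hy5, -0.18 and 0.56 in gbf1, and -0.01 and 0.01 in wild type. It fell by 4.19 (SE 0.220), and gbf1 hy5 differed from wild type by 0.30 (adjusted p = 0.73). Falls with gbf1 hyh arrays below the other 6 were also seen in AT4G02540 (-3.52), AT1G35612 (-3.45), AT1G20390 (-3.15) and AT1G16260 (-3.02). On the wild-type arrays these 4 loci lay between -0.07 and 0.68, and on the gbf1 hyh arrays between -3.68 and -2.44. After quantile normalisation ECS1 fell by 3.24, AT1G23960 fell by 2.69 and ZW9 fell by 2.65, all still called. That setting was applied to values already centred per probe set, where it makes the distribution of differences alike on every array. It can shrink or stretch a difference by itself, so these values do not check the size of the falls.

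**Figure D2:**
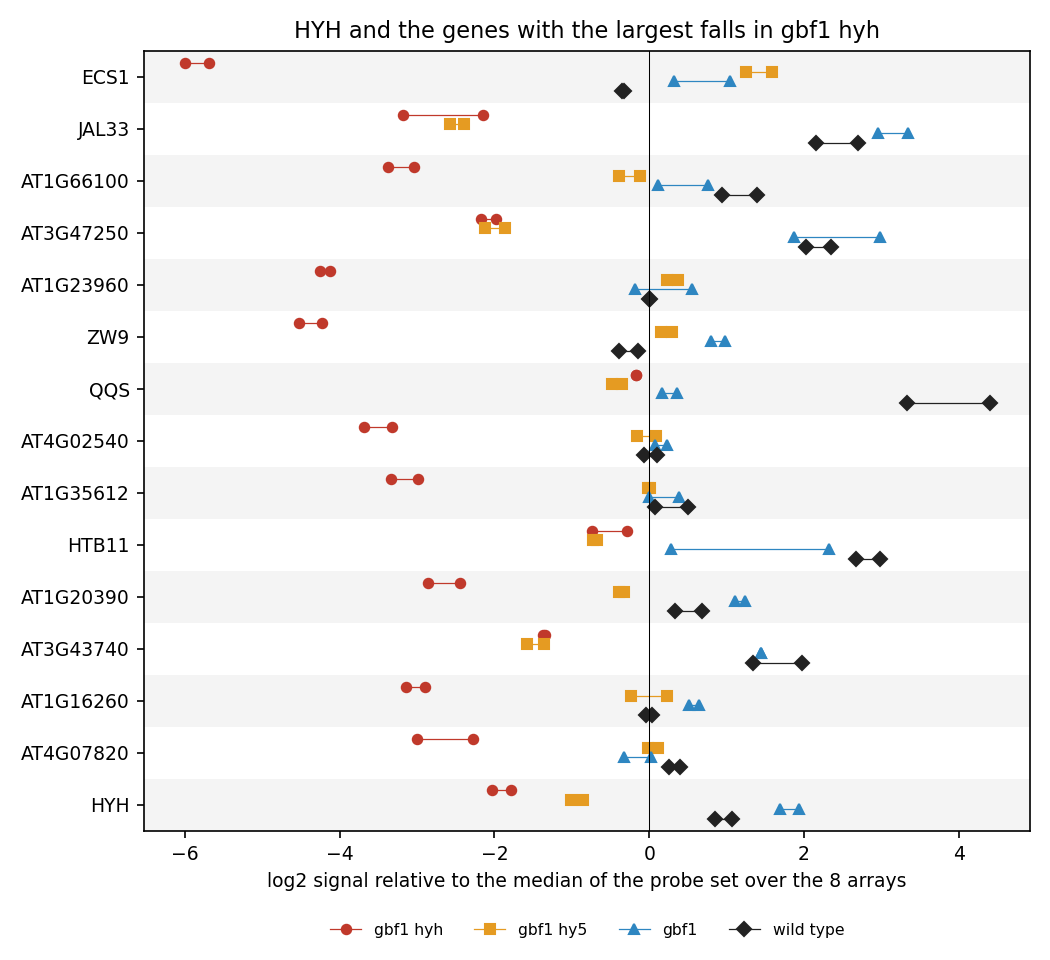
Log2 signal with the probe set's median over 8 arrays at 0 (across) for HYH and the 14 other genes with the largest falls, with 2 arrays per genotype joined by a line. The gbf1 hyh arrays (circles) lie below both wild-type arrays (diamonds) in each gene, and gbf1 hy5 (squares) lies near gbf1 hyh in JAL33, AT3G47250, HTB11 and AT3G43740 but not in ECS1, ZW9 or AT1G23960.

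The thionin gene AT1G66100, of a family of small antimicrobial peptides, stood at -3.04 and -3.38 in gbf1 hyh, -0.39 and -0.12 in gbf1 hy5, 0.76 and 0.12 in gbf1, and 0.94 and 1.40 in wild type. It fell by 4.38 (SE 0.247, adjusted p = 5e-05), while the other thionin genes, THI2.1 (-0.00) and THI2.2 (-0.03), did not pass. None of 15 defensin and thionin genes matched by the words of their names, which do not include AT1G66100, passed (median -0.00). Among the TIR-type NB-LRR genes, which encode intracellular immune receptors, 3 of 63 measured fell and none rose (4.76% called, against 1.18% of all genes). Their median difference was 0.06.

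AT4G19500 stood at -2.52 and -2.54 in gbf1 hyh, 0.03 and 0.64 in gbf1 hy5, -0.03 and 0.33 in gbf1, and -0.09 and 0.36 in wild type, and fell by 2.67 (SE 0.236, adjusted p = 0.000738). AT1G63880 stood at -2.77 and -2.10 in gbf1 hyh and at 0.12 and 0.11 in wild type, and fell by 2.55 (SE 0.270, adjusted p = 0.00211). In both the gbf1 hy5 and gbf1 arrays lay near wild type. The remaining receptor gene to fall, AT3G44630, was also low in gbf1 hy5 and fell by 1.52 in gbf1 hyh (adjusted p = 0.0374), a call that ended without 1 array of gbf1 hyh, gbf1 hy5 or wild type, at an adjusted p up to 0.334. Of 19 PR1-like CAP genes, a secreted family named for a pathogenesis-related protein, 2 fell (10.5%, against 1.18% of all genes), while the median was 0.08 and 13 lay above 0. AT4G07820 fell by 2.96 (SE 0.232, adjusted p = 0.000289) and AT2G19970 by 1.53 (SE 0.156, adjusted p = 0.00167). The families of thionins, TIR-type receptors and CAP, lectin, glutaredoxin, SABATH, H2B, ERD6-like, papain-type and peroxidase genes were drawn up by locus after the values had been seen, several because members had been called. Their shares of calls describe the families, and the share over all genes beside them is no test.

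The following genes with a symbol were chosen after their values were seen. NAI2, needed to form ER bodies, fell by 1.48 (adjusted p = 0.023). MT1C, a metallothionein gene, fell by 1.03 (adjusted p = 0.0247). UGT76B1, which encodes a glucosyltransferase of immune signalling compounds, and AER, an alkenal reductase gene, both fell by 0.99 (adjusted p = 0.0337 for UGT76B1 and 0.0112 for AER). All 4 calls ended without either wild-type array or without gbf1 hyh replicate 2, and the highest adjusted p with 1 array left out lay between 0.130 and 0.271.

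The jacalin-type lectin genes, whose products bind carbohydrates, moved both ways. Of 20 measured, 2 rose and 4 fell (30.0% called, against 1.18% of all genes, in a family chosen for its calls), with a median of 0.02. JAL33 (AT3G16450) stood at -3.18 and -2.15 in gbf1 hyh, -2.40 and -2.57 in gbf1 hy5, 2.96 and 3.35 in gbf1, and 2.15 and 2.69 in wild type. It fell by 5.09 (SE 0.318, adjusted p = 7.74e-05), or 34.1-fold, and its gbf1 hy5 arrays lay between those of gbf1 hyh. AT1G52050 was higher, at 1.56 and 1.19 in gbf1 hyh and -0.09 and -0.65 in wild type, and rose by 1.75 (SE 0.256, adjusted p = 0.0134).

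Its neighbour AT1G52060 rose by 1.40 (SE 0.170, adjusted p = 0.0052). Another gene of the same stretch, AT1G52100, fell by 0.72 (adjusted p = 0.0453), a call lost with a block for the replicate number and after quantile normalisation. AT2G25980 fell by 1.32 (adjusted p = 0.0362) and AT5G35940 by 1.01 (adjusted p = 0.038). Of these 6 lectin genes JAL33 was called with any 1 array left out, and the highest adjusted p of the others lay between 0.0593 and 0.336. Neighbouring lectin genes are close copies, and how far their probe sets read each other was not tested.

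The CC-type glutaredoxin genes, which encode small thiol oxidoreductases of a plant-specific class that responds to nitrogen supply, fell as far as they were called. Of 17 measured, 6 fell and none rose (35.3% called, against 1.18% of all genes, in a family chosen for its calls). The median of the 17 was -0.19, against 0.03 over all genes. AT4G15660 stood at -0.49 and -0.97 in gbf1 hyh, -0.62 and -0.26 in gbf1 hy5, 0.26 and 0.94 in gbf1, and 1.41 and 1.82 in wild type. It fell by 2.35 (SE 0.265, adjusted p = 0.00348).

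AT3G62950 stood at -0.28 and -0.84 in gbf1 hyh, -0.72 and -0.37 in gbf1 hy5, 0.28 and 0.70 in gbf1, and 0.94 and 1.35 in wild type, and fell by 1.70 (SE 0.245, adjusted p = 0.0122). In both genes the wild-type arrays lay above all 6 mutant arrays. AT4G15700, AT3G62930, AT1G06830 and AT2G30540 fell by 1.32, 1.30, 1.27 and 0.99, and on every mutant array they were below wild type. The call of each of the 6 ended without wild type replicate 2, with an adjusted p over the left-out arrays of up to 0.0655 for AT4G15660 and between 0.103 and 0.345 for the others. Several of these genes are near-identical neighbours, and how far their probe sets read each other was not tested.

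Genes of glucosinolate synthesis, the sulphur-rich defence compounds of the cabbage family, fell or did not pass. Of 5 measured, 2 fell and none rose (40.0%, against 1.18% of all genes), with a median of -0.59. BCAT4, the aminotransferase that starts side-chain elongation of methionine, stood at -1.38 and -2.05 in gbf1 hyh, 1.48 and 1.65 in gbf1 hy5, -0.93 and -0.69 in gbf1, and 0.80 and 0.69 in wild type. It fell by 2.46 (SE 0.216, adjusted p = 0.000738), with gbf1 hyh lowest and gbf1 hy5 highest of the genotypes.

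GSTU20, a glutathione S-transferase gene linked to the same pathway, followed that order in its means, though its gbf1 hyh and gbf1 arrays overlapped. It stood at -0.49 and -1.17 in gbf1 hyh, 2.05 and 2.05 in gbf1 hy5, -0.37 and -0.70 in gbf1, and 0.37 and 0.67 in wild type. It fell by 1.35 (SE 0.229, adjusted p = 0.0257), a call lost in the fit of gbf1 hyh and wild type alone and without some single arrays. Of the glucosyltransferase genes UGT74B1 was at -0.41 (adjusted p = 0.649) and AT2G31790 at -0.59 (adjusted p = 0.268), and the side-chain gene AOP3 was at 0.17. In other enzyme families, CYP71B26 was the 1 of 24 cytochrome P450 genes to pass (4.17%, against 1.18% of all genes), at -0.77 and -0.43 in gbf1 hyh and 1.45 and 1.41 in wild type, and fell by 2.03 (SE 0.184, adjusted p = 0.000839). Of the UDP-glycosyltransferase genes UGT76B1 fell, as given above, and none of the 43 others matched by the words of their names passed.

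**Figure D3:**
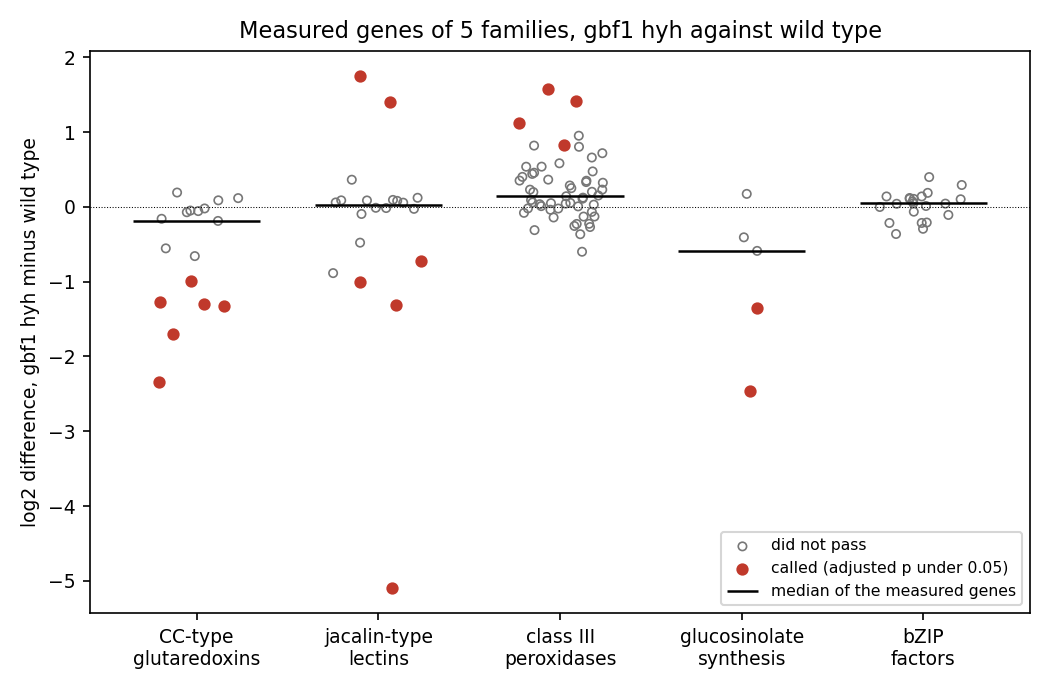
Log2 difference of gbf1 hyh minus wild type (upwards) for each measured gene of 5 families, with called genes filled and the median as a bar. The 6 called glutaredoxin genes all lie below 0, the 4 called peroxidase genes all lie above 0, the called lectin genes lie on both sides, and none of the 22 bZIP genes was called.

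QQS (AT3G30720), whose product affects how much starch leaves hold, was low in all mutants. It stood at -0.17 and -0.17 in gbf1 hyh, -0.35 and -0.48 in gbf1 hy5, 0.36 and 0.17 in gbf1, and 4.40 and 3.33 in wild type. It fell by 4.04 in gbf1 hyh (SE 0.286, adjusted p = 0.000158), beside differences from the same wild-type arrays of -4.28 in gbf1 hy5 and -3.60 in gbf1. AT5G04380, of the SABATH methyltransferases that methylate small carboxylic acids, had that pattern too, at -0.05 and 0.12 in gbf1 hyh, -0.10 and -0.11 in gbf1 hy5, -0.21 and 0.05 in gbf1, and 2.37 and 2.15 in wild type. It fell by 2.22 (SE 0.156, adjusted p = 0.000153), and 2 of 16 measured SABATH genes fell in all (12.5%, against 1.18% of all genes; median 0.10, with 10 above 0), the other being AT5G38020 at -1.14 (adjusted p = 0.0239, and up to 0.250 with 1 array left out).

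Besides JAL33, CYP71B26 and the genes low in all mutants, AT3G47250, AT3G43740 and HTB11 were also low on the gbf1 hy5 arrays. AT3G47250 stood at -1.98 and -2.17 in gbf1 hyh, -2.12 and -1.86 in gbf1 hy5, 2.98 and 1.86 in gbf1, and 2.03 and 2.35 in wild type, and fell by 4.27. AT3G43740 fell by 3.02, with its gbf1 hyh arrays at -1.34 and -1.38 and its wild-type arrays at 1.34 and 1.98. HTB11, a gene of the core histone H2B, stood at -0.28 and -0.74 in gbf1 hyh, -0.73 and -0.67 in gbf1 hy5, 2.33 and 0.28 in gbf1, and 2.98 and 2.68 in wild type. It fell by 3.34 (SE 0.512, adjusted p = 0.0167), a call lost without 1 array of wild type or gbf1 hy5 or without gbf1 hyh replicate 2, at an adjusted p up to 0.171. Of the 10 H2B genes measured (20.0% called, against 1.18% of all genes) 1 fell, HTB11, and 1 rose, HTB1 by 0.90 (adjusted p = 0.0246, and up to 0.210 with 1 array left out).

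Among the rises, the 3 largest of genes with a probe set of their own were also high on the gbf1 hy5 arrays. AT3G28320 stood at 2.45 and 2.30 in gbf1 hyh, 1.89 and 2.28 in gbf1 hy5, -2.33 and -2.42 in gbf1, and -1.89 and -2.58 in wild type. It rose by 4.61 (SE 0.230, adjusted p = 2.38e-05), or 24.4-fold. AT2G15560 rose by 3.46 (SE 0.157), with gbf1 hyh at 1.64 and 1.83 and wild type at -1.81 and -1.64. AT3G05150, of the ERD6-like sugar transporters that move sugars across the vacuolar membrane, rose by 3.07 (SE 0.149, adjusted p = 2.38e-05), with gbf1 hyh at 1.63 and 1.79 and wild type at -1.36 and -1.36. It was the 1 of 10 measured genes of its family to pass, against 1.18% of all genes called, and in all 3 loci the gbf1 arrays lay near wild type.

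Other rises set gbf1 hyh above every other genotype. ACLA-2 (AT1G60810) encodes a subunit of ATP-citrate lyase, the enzyme that makes acetyl-CoA in the cytosol. It stood at 1.67 and 1.48 in gbf1 hyh, -0.05 and 0.29 in gbf1 hy5, 0.03 and -0.03 in gbf1, and -0.21 and -0.30 in wild type, and rose by 1.83 (SE 0.160, adjusted p = 0.000735). AT2G41190 rose by 1.74 (SE 0.170, adjusted p = 0.00129), at 1.59 and 1.64 in gbf1 hyh against 0.08 and -0.33 in wild type. AT5G26270 rose by 1.74 (SE 0.166, adjusted p = 0.00109), at 1.28 and 1.67 in gbf1 hyh, -3.37 and -3.43 in gbf1 hy5, 0.20 and 0.36 in gbf1, and -0.32 and -0.20 in wild type. For that locus the double mutants lay on opposite sides of wild type.

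Some rises came from wild-type arrays that lay below all mutant arrays. AT2G16005 stood at 0.00 and -0.69 in gbf1 hyh and at -2.25 and -2.34 in wild type. It rose by 1.95 (SE 0.268, adjusted p = 0.0103), or by 3.17 after quantile normalisation, with the limit given above for that setting. That call ended without either wild-type array, at an adjusted p up to 0.124. AT1G29090, of the papain-type cysteine proteases, stood at -0.22 and -0.02 in gbf1 hyh, 1.44 and 0.97 in gbf1 hy5, 0.02 and 0.09 in gbf1, and -1.74 and -2.27 in wild type. It rose by 1.89 (SE 0.215, adjusted p = 0.0036). Of 18 measured genes of that protease family (11.1% called, against 1.18% of all genes) 1 rose and 1 fell, AT1G02300 by 1.67 (adjusted p = 0.043, and up to 0.345 with 1 array left out). Of the remaining rises, AT1G50290 was at 2.35 (adjusted p = 0.0112) and AT4G37220 at 1.61 (adjusted p = 0.00936), and both lost the call without some arrays. AT1G50290 was also high in gbf1 hy5, at 1.64 and 1.63. Its gbf1 arrays, at -1.54 and -2.30, lay below both wild-type arrays, at -1.43 and -0.81. COR27, a cold-responsive gene of the clock and chosen after its values were seen, rose by 1.06 (adjusted p = 0.017, and up to 0.183 with 1 array left out).

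**Figure D4:**
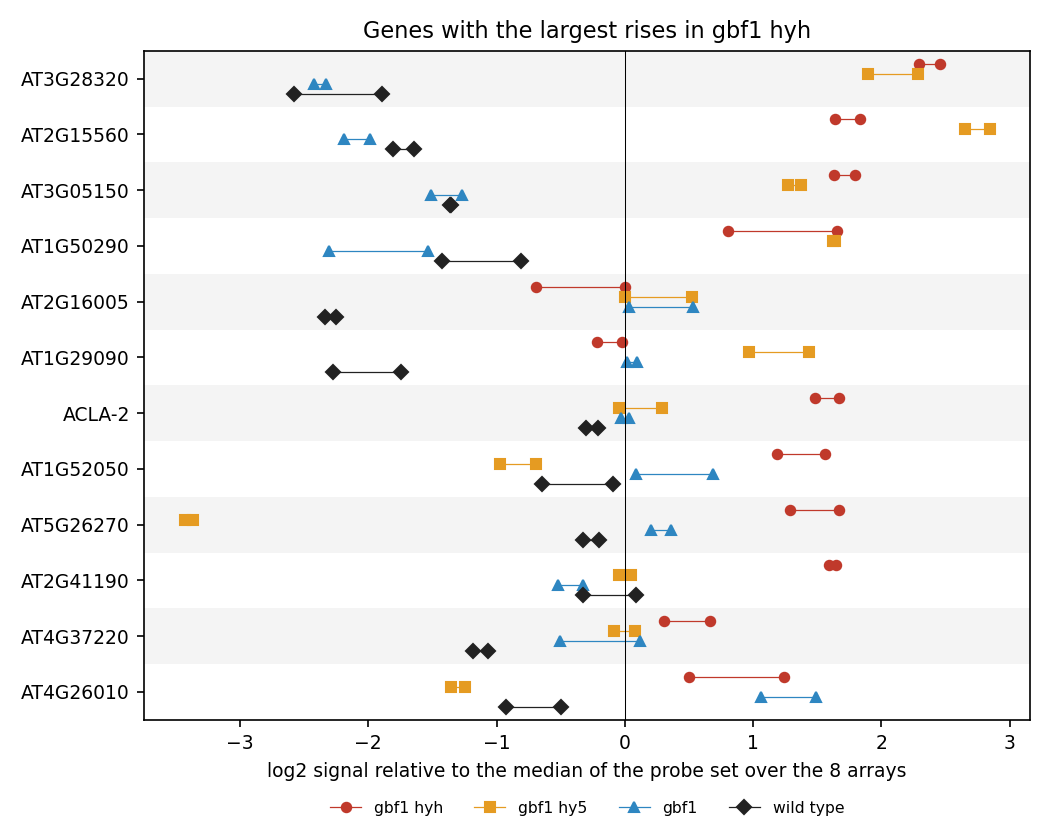
Log2 signal relative to the probe set's median over the 8 arrays (across) for the 12 genes with the largest rises, with 2 arrays per genotype joined by a line. The gbf1 hyh arrays (circles) lie above both wild-type arrays (diamonds) in each gene. The gbf1 hy5 arrays (squares) lie near or above gbf1 hyh in AT3G28320, AT2G15560, AT3G05150, AT1G50290, AT2G16005 and AT1G29090 and far below it in AT5G26270.

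Cell wall peroxidase genes and a root hair marker were among the rises. Of 55 class III peroxidase genes, which encode secreted enzymes that cross-link or loosen walls, 4 rose and none fell (7.27% called, against 1.18% of all genes, in a family chosen for its calls). The median of the 55 was 0.15, with 40 above 0. AT4G26010 stood at 0.50 and 1.24 in gbf1 hyh, -1.25 and -1.36 in gbf1 hy5, 1.06 and 1.49 in gbf1, and -0.50 and -0.92 in wild type. It rose by 1.58 (SE 0.260, adjusted p = 0.0233), and in gbf1 it stood 1.98 above the same wild-type arrays.

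AT2G39040 rose by 1.41 (SE 0.204, adjusted p = 0.0126), at 1.36 and 1.18 in gbf1 hyh against -0.15 and -0.14 in wild type. AT5G15180 rose by 1.12 (adjusted p = 0.0286) and AT5G17820 by 0.83 (adjusted p = 0.0464). All 4 calls ended with wild type replicate 1 or gbf1 hyh replicate 2 left out, and each with further single arrays. In the fit of gbf1 hyh and wild type alone, AT4G26010, AT5G17820 and AT5G15180 were not called. The AT5G17820 call was also lost with array medians centred. The root hair expansin gene EXPA18 stood at 0.30 and 0.66 in gbf1 hyh, -0.30 and -0.34 in gbf1 hy5, 1.37 and 1.41 in gbf1, and -0.50 and -0.68 in wild type, and rose by 1.08 (SE 0.161, adjusted p = 0.0146, and up to 0.177 with 1 array left out). EXPA7, the other root hair marker measured, was at 0.12, and their part in the peroxidase rises was not tested. EXLA3, an expansin-like gene, fell by 1.24 (SE 0.157, adjusted p = 0.00692), with all 6 mutant arrays below wild type, a call that ended without wild type replicate 2 (adjusted p = 0.101).

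Of 17 sugar transporter genes picked by symbol (11.8% called, against 1.18% of all genes), SWEET11, which exports sucrose towards the phloem, rose by 0.89 (adjusted p = 0.0353), and SWEET16, a transporter of the vacuolar membrane, fell by 1.28 (adjusted p = 0.0116). SWEET16 stood at -0.99 and -1.04 in gbf1 hyh and at 0.12 and 0.41 in wild type. BGLU15, a beta-glucosidase gene, was the 1 of 35 glycosyl hydrolase genes to pass (2.86%) and rose by 0.94 (adjusted p = 0.0141). These 3 calls ended without either wild-type array or without gbf1 hyh replicate 2. The SWEET11 call also ended without gbf1 hyh replicate 1 or without either gbf1 hy5 array. In the fit of gbf1 hyh and wild type alone, neither SWEET11 nor BGLU15 was called.

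In the lists for photosynthesis and pigments no measured gene was called. None of 7 chlorophyll synthesis genes (median 0.09), 3 light-harvesting genes (median -0.12), 3 Calvin cycle genes or 6 flavonoid genes (median -0.07) passed, against 1.18% of all genes. The lists are small, so they say little of these pathways as a whole. The clock gene GI was at 0.65 without passing. Of 11 photosystem and thylakoid genes picked by symbol none passed (median -0.11), but 9 lay below 0. Of 22 bZIP genes besides HYH none passed (median 0.05). The plastid genes psbK and psbI encode small photosystem II subunits but are not among the 11 photosystem and thylakoid genes. Both were called, and both were named after their values were seen. Whether plastid genes as a group were lower was not tested. In gbf1 hyh psbK stood at -0.83 and -1.52 and psbI at -0.96 and -1.08, against 0.51 and 0.85 for psbK and 0.53 and 0.43 for psbI in wild type (adjusted p = 0.0492 for psbK and 0.0367 for psbI). Without 1 array of gbf1 hyh or wild type neither passed. The psbK call was also lost with a block for the replicate number, with a robust prior and among probe sets with 1 gene only.

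The hormone and stress lists held few measured genes too, and are read against the 1.18% called over all genes. Of 6 auxin genes none passed, with IAA29 at -0.57. Of 4 abscisic acid and cold genes none passed, with LTI30 at -0.71, COR15B at -0.54, COR47 at 0.37 and COR15A at 0.27. None of the 3 gibberellin and brassinosteroid genes passed, with the receptor gene GID1A at 0.57, nor did any of 3 jasmonate genes, 1 salicylic acid gene or 8 expansins and xyloglucan enzymes of a separate list.

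Of the probe sets without a gene in the table used here, 263174_at changed most. Its values were 6.38 and 6.02 in gbf1 hyh, 0.86 and 2.69 in gbf1 hy5, -1.29 and -0.98 in gbf1, and -0.86 and -1.42 in wild type, and was 7.34 higher (SE 0.481, adjusted p = 9.97e-05). 254805_at fell by 4.22, to -3.17 and -3.87 in gbf1 hyh against 0.68 and 0.72 in wild type. 246211_at fell by 4.19 and, as for QQS, was low in all mutants, with the wild-type arrays at 4.20 and 4.38. 259040_at (-3.76) and 256601_s_at (-3.67) were low in gbf1 hy5 as well.

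The called genes were unevenly spread over the chromosomes. Chromosome 3 held 51 calls among 2720 tested genes (1.88%), of which 11 were higher and 40 lower, and chromosome 1 held 55 among 3411 (1.61%), of which 16 were higher and 39 lower. Chromosome 2 held 20 (0.922%), chromosome 4 held 17 (0.879%) and chromosome 5 held 13 among 2981 (0.436%). Calls of gbf1 hy5 against the same wild-type arrays made up 1.73% of all tested genes, 2.72% on chromosome 3 and 1.85% on chromosome 5. Those of gbf1 made up 0.359% of all, 0.368% on chromosome 3, 0.517% on chromosome 4 and 0.302% on chromosome 5.

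Of 663 windows of 20 neighbouring tested genes, 532 held no call, 108 held 1, 21 held 2 and 2 held 3, and the 23 windows with at least 2 calls (3.47% of windows) held 48 of the 156 called genes. The densest stretch of 220 tested genes, sought after the values were seen, ran from AT3G43540 to AT3G47700 on chromosome 3. It held 14 calls (6.36%, against 1.18% of all genes), 1 higher and 13 lower. Among them were AT3G43740, AT3G44630, EXLA3, HTB11 and AT3G47250, and all of these named genes were also low in gbf1 hy5. Differences of gbf1 hy5 from the same wild-type arrays were -3.13 in AT3G43740, -1.25 in EXLA3, -3.53 in HTB11 and -4.19 in AT3G47250. The densest such stretches held 10 calls on chromosome 1, 8 on chromosome 4, 6 on chromosome 2 and 4 on chromosome 5. The windows with 3 were those from AT1G51900 to AT1G52180, with the lectin genes AT1G52050, AT1G52060 and AT1G52100, and from AT3G62640 to AT3G63010, with 3 lower calls that include the glutaredoxin genes AT3G62930 and AT3G62950. Long stretches had no call, of 956 tested genes on chromosome 5 (AT5G48500 to AT5G67630), 565 on chromosome 2 and 554 on chromosome 4. Among the 100 tested genes around HYH, from AT3G16670 to AT3G18670, 2 were called (2.0%), SWEET16 and AT3G18280, both lower. JAL33 (AT3G16450), among the largest falls, lay outside these 100 but in the window next to that of SWEET16. The windows from AT3G15490 to AT3G15760, AT3G15770 to AT3G16080 and AT3G16120 to AT3G16520 held 2, 1 and 1 calls, all lower. On the other side, the window from AT3G18930 to AT3G19330 held no call. Among the 100 around the GBF1 locus AT4G36730, 1 was called, AT4G37220, higher. What part differences of background between the lines have in these places was not tested.

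**Figure D5:**
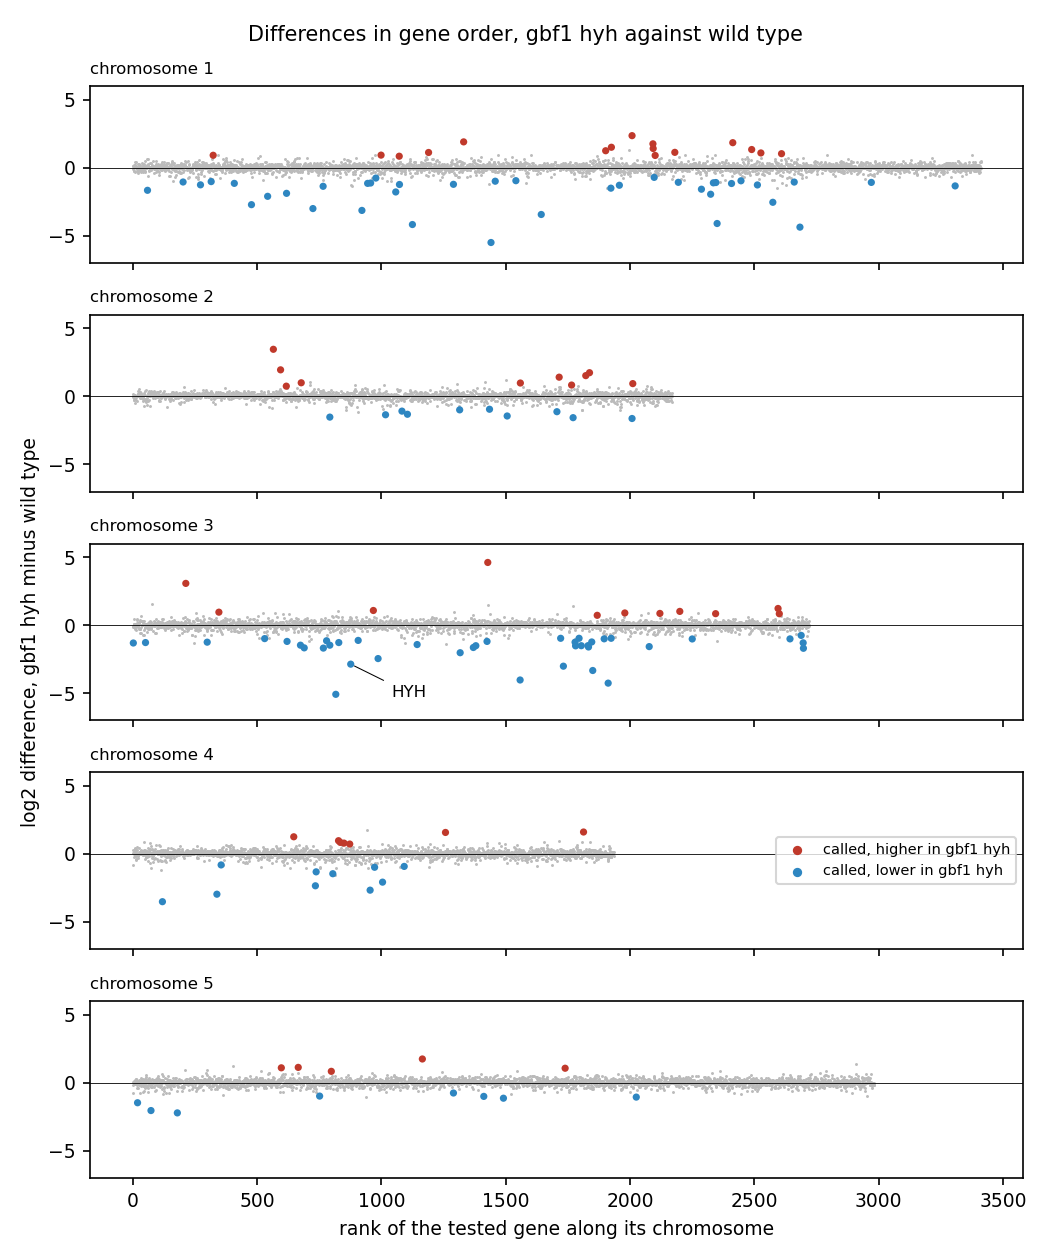
Log2 difference of gbf1 hyh minus wild type (upwards) for each tested gene in its order along the 5 chromosomes (across), with called genes in colour. Calls are most frequent on chromosomes 1 and 3 and fewest on chromosome 5, where 956 tested genes in a row have none.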

How the data were processed

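RNA of whole seedlings was labelled with a 3' IVT kit, per the labels' protocols. The authors made the values with RMA in GeneSpring, per the series design text; the submitters' processing notes also name RMA and give no version. No source used here states a log base, and the deposited values were read as log2 because RMA usually writes log2. Each of the 22810 probe sets has a median of 0 over the 8 arrays (within 5e-07), so no level, trend with level or filter on dim probe sets could be had. No raw image was used here. Without the 64 AFFX controls, 22746 probe sets were tested.

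With limma 3.58.1 (R 4.3.3), 1 mean per genotype was fitted to the 8 arrays together, with no block for the replicate number (residual degrees of freedom 4, prior 5.124). The fit was also run on simulated normal values with the same spread on every array of a probe set. That run cannot speak to the uneven spread between replicates seen here. Benjamini-Hochberg adjustment ran over all tested probe sets. The number of arrays limits the precision. The comparison follows the series design text. Samples were grouped by their labels, which call replicates biological without saying whether seedlings came from separate sowings.

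Of the tested probe sets 13513 were tied to 1 gene, 503 to several and 8730 to none. Symbols and gene order came from a RefSeq gene table of assembly TAIR10.1, in which 13436 were found. Each gene was read on its first probe set by identifier type. Genes were named by a rule: HYH, the 15 largest falls and 12 largest rises among called probe sets with 1 gene and arrays apart, up to 3 called members of each fixed list or symbol family, and 5 unnamed probe sets. The rule, 19 lists of 312 members (54 measured) and families were chosen with earlier results of these data known. Light signalling, glucosinolate breakdown, nitrate assimilation and seed marker lists had no measured member. Further families were added by locus, from general knowledge of Arabidopsis families, after the values were seen. The planned product words were replaced by symbols and synonyms. Promoter sequences were not used here, so the planned G-box count was not run.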

Additional observations from a re-analysis of the deposited data

Results flagged for a closer look

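The hybridisation control probe sets, which are not part of the gene comparison, gave a mean of 1.4994 on gbf1 hyh replicate 2, above the range of both wild-type arrays, at -0.186 and 0.268. The other gbf1 hyh array was at -0.522. With the control mean as a covariate the fit called 529 probe sets in place of 292. The part of this array in single results was not tested beyond the fits without it.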

How the results depend on the processing

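Of 40 genes and probe sets named by the rule, 28 kept their call under every alternative and with any 1 array left out, 12 did not, and 0 reversed. The main counts were 292 calls, 83 higher, 209 lower and 221 of 2-fold or more. In the fit of gbf1 hyh and wild type alone there were 178 calls, 49 higher and 129 lower. Quantile normalisation, applied to values already centred per probe set, gave 465, of which 170 were higher. The spike-in covariate gave 529, of which 183 were higher and 346 lower. Of the 13513 probe sets with 1 gene the main fit called 159. Tested alone, these 13513 gave 151 calls, 46 higher, 105 lower and 118 of 2-fold or more. Testing against a difference of 0.5 gave 67, 12 higher, 55 lower and all 67 of 2-fold or more. With 1 array left out the total ran from 68 to 365, higher calls from 13 to 107, lower calls from 53 to 258 and 2-fold calls from 68 to 289; leaving out either array of a pair that is not compared gives the same fit of the contrast. The causes were not tested. Fits with array medians centred (294), a robust prior (281), array weights (347) or without both arrays of high control signal (337) stayed within 1.5 times.

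The replicate numbers are shared between genotypes, but replicate-1 deviations of gbf1 hyh and wild type correlated at 0.0640, those of gbf1 and gbf1 hyh at 0.336, and those of gbf1 hy5 and gbf1 hyh at -0.114. Since not every pair of genotypes was above 0.1, the numbers were not taken as pairs. With the replicate block 338 probe sets were called, 100 higher and 238 lower, 278 of them among the 292, and 244 of 2-fold or more. The signal over background is not given by the deposited values, so its limit on dim probe sets is unknown.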
